A study of Mus musculus with 18 samples.

Results

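The TKO;Carm1KO tumors, given by the study as small cell lung cancer, come from mice in which the arginine methyltransferase CARM1 was deleted together with tumor suppressors, and the description below covers their 3 RNA-seq and 3 ATAC-seq libraries alone. The members were taken by their labels, 6 of the 18 samples of the series, with 3 samples per assay. The mice carried loxP-flanked (conditional) alleles of Rb1, Trp53, Carm1 and another retinoblastoma family gene, which the labels give as Rbl1 and the methods as Rbl2, together with a Cre-dependent tdTomato reporter on a mixed background. Adenovirus expressing Cre was given through the trachea at 8 weeks of age, and cells were taken from the lungs 28 weeks later, from a different animal for each of the 3 replicates. The virus recombines any airway or lung cell it enters, so the reporter marks recombined cells and not a cell type. The methods describe cells sorted for the reporter, while other passages name tumor biopsies and cancer cell lines, and the source of each library was not settled. The libraries are called library 1, 2 and 3 after the replicate number in the labels.

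CARM1 adds asymmetric dimethyl marks to arginines of histones and of transcription factors and coactivators, and NFIB, a factor that small cell lung cancer often overexpresses, is one of its substrates. Small cell lung cancer is a neuroendocrine carcinoma: its classical form expresses secretory granule proteins such as chromogranin A, and epithelial keratins and cadherin. Less common forms lack these genes and express YAP1 or mesenchymal genes. ATAC-seq counts reads at places where a transposase can cut the DNA, which are mostly promoters and enhancers free of nucleosomes.

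Carm1 itself was counted at 63.3 CPM (counts scaled to 1000000 per library) in library 1, 79.0 in library 2 and 50.7 in library 3, and the peak at its start site (the only one there) held 59.0, 72.0 and 78.1 CPM. Gene counts do not show which exons the reads came from, so they do not settle whether the gene was deleted. The paper reports that NFIB methylation was lost in immunoblots of tumors of this genotype. Its methods also describe immunoblots of tumor biopsies as the check of the conditional alleles. Carm1 had 97.6, 103 and 44.5 CPM in the 3 libraries of the TKO tumors. In those of the tumors with mutant NFIB it had 100.3, 103.9 and 101.7 CPM, and both genotypes have an undeleted gene. The CARM1 knockout libraries lay below all of these but the TKO library with 44.5 CPM. The other targeted genes also kept reads: Trp53 had 7.85, 5.53 and 6.23 CPM, Rb1 23.1, 18.4 and 48.6, Rbl2 10.3, 8.15 and 13.1, and Rbl1 53.4, 50.5 and 55.3. Their start sites were open at 42.1 to 49.7 CPM for Trp53 and 25.5 to 30.6 CPM for Rbl2. Among genes with the most similar start-site accessibility, the percentile of expression per length was 17.4, 14.4 and 12.6 for Trp53 and 12.6, 11.4 and 14.6 for Rbl2. It was 32.5, 24.0 and 49.1 for Rb1, 50.7, 52.3 and 53.3 for Rbl1 and 64.9, 68.3 and 67.1 for Carm1. Transcripts of Trp53 and Rbl2 were thus few for how open their start sites were, and those of Rb1 lay below the middle in libraries 1 and 2 and near it in library 3. Those of Rbl1 lay near the middle and those of Carm1 above it.

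Depth was 15848866 to 18615124 counts on genes per RNA-seq library and 35143296 to 44685915 reads on peaks per ATAC-seq library. A count of 0 allows up to 0.168 to 0.203 CPM in RNA-seq and 0.0576 to 0.0775 CPM in ATAC-seq (3 counts per library, counting error only). Of 46078 genes, 14390 reached 1 CPM in at least 1 of the 3 libraries, and of 111664 peaks, 86902 did so. These are the genes and peaks tested below, with median levels of 26.1, 25.2 and 28.0 CPM per gene and 2.92, 2.84 and 2.76 CPM per peak. Nothing beyond the labels says how the 3 animals of the group were handled, so the spread between libraries holds both tumor and technical differences.

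The most abundant transcripts were those of translation, the cytoskeleton, iron storage and collagen. To compare genes, counts were divided by the length of the merged exons as well (CPM per kb). By this measure the highest gene was Gm23935, annotated as a microRNA gene of only 57 bases on chromosome 16, inside a peak that lies 2197 bp from the start of Zc3h7a, at 8157 ± 1703 CPM per kb (SD, n = 3). Mitochondrial and ribosomal protein genes were left out of this ranking. The elongation factor gene Eef1a1 followed at 3261 ± 455, the galectin gene Lgals1 at 2089 ± 518, the ferritin light chain gene Ftl1 at 1619 ± 255, the collagen gene Col1a1 at 1167 ± 317 and the elongation factor gene Eef2 at 1148 ± 288 CPM per kb. The ferritin heavy chain gene Fth1 had 840.5 ± 355 CPM per kb. The actin genes Actb and Actg1 had 1047 ± 93.6 and 1115 ± 325.

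Col1a1, the main chain of type I collagen of connective tissue, was among the 20 highest genes at 1167 ± 317 CPM per kb, and Spp1, the secreted phosphoprotein osteopontin, was too, at 1117 ± 621. Spp1 was high in libraries 1 and 2, at 1304 and 1622 CPM per kb, and lower in library 3, at 423. The rest of the 20 were Ptma, Hsp90ab1, Gapdh, Pkm, Ifitm3, Tmsb4x, the ribosomal RNA entry CT010467.1, Tubb5, Lyz2 and Calr. Lyz2, the lysozyme gene of macrophages and of alveolar type II cells, had an SD above its mean, with 461, 107 and 1492 CPM per kb. The 20 genes took 5.01 to 5.44% of all counts. Mitochondrial transcripts took 1.51 to 1.72%, 84 ribosomal protein genes 4.04 to 4.64% and 44 collagen genes 1.92 to 3.04%.

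Genes of fibroblasts and of the extracellular matrix were expressed in all 3 libraries. All 15 fibroblast genes of the list exceeded 1 CPM in each library, with medians of 527, 407 and 372 CPM against 26.1, 25.2 and 28.0 CPM over all genes tested. Col1a1 had 6741, 6194 and 10039 CPM, and Col3a1, a chain of type III collagen, 2770.4, 3701 and 6644. Pdgfrb, a receptor of mesenchymal cells, had 643, 431 and 922 CPM. None of the 15 was 4-fold above or below both other libraries, where 7.34% of all genes tested were 4-fold above in library 3. Lum had 265, 71.0 and 32.5 CPM and Dcn 2427, 945 and 553. These small matrix proteoglycans were highest in library 1 and lowest in library 3, although neither passed the 4-fold threshold.

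Of 20 matrix genes, 20, 19 and 19 exceeded 1 CPM, and the median was 890.3, 1019 and 731 CPM. Fn1, fibronectin, had 4976, 5384 and 2242 CPM, and Col12a1 had 3624, 1648 and 594. Elastin was the exception, with Eln at 1.56, 0.815 and 0.785 CPM. Matrix proteases and their inhibitors were present too: Mmp2, a gelatinase, had 839, 1111 and 240.4 CPM and Mmp3, a stromelysin, 517, 489 and 314.

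Factors of mesenchymal cells accompanied these genes. Of 10 genes of epithelial-mesenchymal transition, 9 exceeded 1 CPM in each library, the exception being S100a4 with at most 0.338 CPM. Vim, the intermediate filament vimentin, had 2260.2, 2968 and 2505 CPM, and the repressors Zeb1 and Snai1 had 87.5, 117 and 86.1 and 99.5, 103 and 92.1 CPM. These values lay close together in the 3 libraries. Prrx1, a homeobox factor of mesenchyme, had 678, 247 and 426 CPM.

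Of 10 factors of lung mesenchyme, Foxf1 had 225, 145 and 34.4 CPM, Tbx5 23.3, 10.4 and 16.1, and Gata6 64.1, 29.8 and 41.3. Their start sites were open in every library, at 36.3 to 79.8 CPM for Foxf1 and 22.8 to 36.4 CPM for Tbx5. Tcf21, which marks lung lipofibroblasts, had no count in any library and no peak at its start. Tbx2, Tbx4 and Meox2 were above 1 CPM in library 2 alone, at 2.33, 3.09 and 2.97 CPM.

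Only some of the Hox genes, which record position along the body axis, were expressed. Of 39 genes, 15 exceeded 1 CPM, each of them in all 3 libraries, and all of them in the HoxA and HoxB clusters. The highest were Hoxa5, at 63.6, 35.7 and 49.8 CPM, Hoxb4, at 35.1, 33.8 and 26.8, and Hoxb9, at 23.6, 39.7 and 26.5. No gene of the HoxC and HoxD clusters and none of the posterior HoxA genes reached 1 CPM. Accessibility was mostly ordered in the same way: the start site of Hoxa5 held 21.3 to 26.4 CPM, against 0.775 to 1.48 CPM for Hoxa11 and 0.749 CPM in each library for Hoxd9. Hoxb6, with 30.2, 19.8 and 22.9 CPM of RNA but 0.878, 0.633 and 2.59 CPM at the start, did not follow that order.

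Proliferation genes were high and even. All 15 mitosis genes had at least 60.6 CPM in each library, with medians of 140.1, 176 and 125 CPM. Mki67 had 450.4, 386 and 448 CPM and Top2a 603, 557 and 537. Inhibitors of cyclin-dependent kinases were present beside them, and Cdkn2a, whose products act through the RB and p53 pathways, had 349.7, 380.0 and 294 CPM. Myc had 78.8, 87.1 and 56.0 CPM, with Mycl at 14.7, 7.86 and 11.4 and Mycn at most 1.57 CPM.

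Several immediate early genes encode subunits of AP-1, a factor that opens enhancers of growth and wound genes. All 11 exceeded 1 CPM in each library. Fosl2 had 359, 392 and 261 CPM, Junb 194, 260.3 and 168, and Fosl1 100.03, 82.9 and 36.8. Fos itself had 9.07, 7.05 and 8.75 CPM, although its start site held 51.6, 54.9 and 62.3 CPM of accessibility.

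Among the arginine methyltransferases, Prmt5 and Prmt7 were the highest, at 88.6, 146 and 62.4 and 85.5, 122.7 and 75.1 CPM. Prmt2, Prmt3 and Prmt9 had between 24.6 and 46.5 CPM, Prmt6 9.03 to 13.1, and Prmt8 at most 0.112. Prmt1 was not analysed here. All 4 NFI genes were expressed. Nfix had 300.3, 291 and 268 CPM, Nfic 293, 497 and 234, Nfib 74.4, 216 and 87.1, and Nfia 48.0, 18.4 and 26.1. Nfib was highest in library 2, and no NFI gene passed the 4-fold threshold.

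The labelled cell type was checked against its defining markers, and libraries 1 and 2 lacked most of them. Of 20 neuroendocrine genes, 3 exceeded 1 CPM in library 1 (Ncam1, Uchl1 and Cplx2), 4 in library 2 (the same genes and Insm1) and 19 in library 3. Median levels were 0.0677, 0.146 and 78.1 CPM, and the sums over the list 76.3, 208 and 2514 CPM. Among the factors that define molecular subtypes, Neurod1 and Atoh1 had no count, Pou2f3 at most 0.112 CPM, and Yap1 161, 196 and 105 CPM. Library 3 thus held most of the neuroendocrine genes together with the fibroblast genes and Yap1. Libraries 1 and 2 held the latter and few of the neuroendocrine genes, of which Ncam1 was highest in library 2. In libraries of many cells, a smaller share of a cell type and less RNA per cell cannot be told apart.

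**Figure D1:**
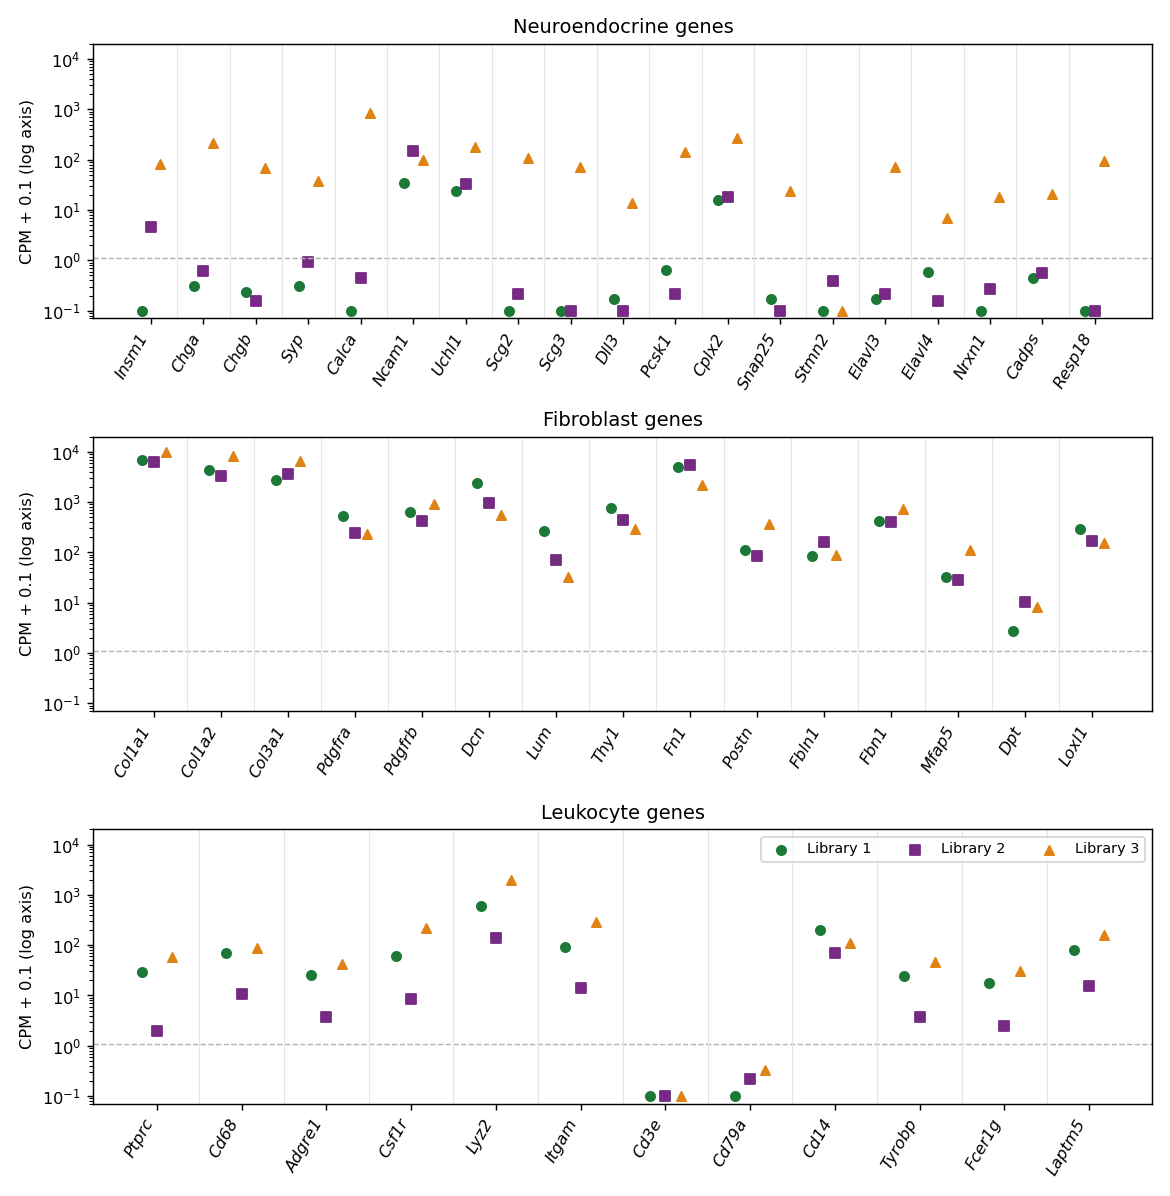
Level of genes of the neuroendocrine, fibroblast and leukocyte lists in the 3 CARM1 knockout RNA-seq libraries, as CPM + 0.1 on a log axis, with 1 point per library and a dashed line at 1 CPM. In the upper panel all genes but Ncam1 and Stmn2 are 4-fold higher in library 3 than in both others, in the middle panel the 3 libraries overlap, and in the lower panel library 2 is lowest for the 10 genes above 1 CPM.

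Markers of other cells were counted in the same way. Of 12 leukocyte genes, 10 exceeded 1 CPM in each library, with summed levels of 1203, 272 and 3012 CPM. These were genes of macrophages: Lyz2 had 606, 141 and 1964 CPM, Csf1r, the receptor of a macrophage growth factor, 60.7, 8.33 and 223, and Adgre1 25.04, 3.55 and 42.9. The lymphocyte genes Cd3e and Cd79a had 0 to 0.224 CPM. Library 2 was 4-fold below both others for 9 of the 10 tested leukocyte genes, where 3.0% of all genes tested were so. The smooth muscle actin gene Acta2 had 761, 330.0 and 1535 CPM and its partner Tagln 256, 132 and 291, while Myh11, which marks mature smooth muscle, stayed at 0.466 to 7.58 CPM. Pericyte genes summed to 24.97, 25.4 and 109.8 CPM, with Rgs5 at most 0.757 CPM, and Notch3 accounted for 73.1 CPM in library 3. Endothelial genes summed to 18.2, 6.06 and 75.7 CPM, nearly all from Vwf in library 3 (62.3 CPM), with Cldn5 and Emcn at 0 and Cdh5 at most 0.699 CPM.

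Genes of red cells and skeletal muscle were near 0, with sums of at most 0.932 and 0.408 CPM. Of the mesothelial list, Upk3b and Lrrn4 had no count, and Msln had 1.96, 92.9 and 1.46 CPM. Of the Schwann cell list, Sox10 had no count, while Erbb3 had 31.4 CPM in library 3 alone. Among fat cell genes, Adipoq and Plin1 had no count, and Lpl, which macrophages also express, had 58.0, 8.27 and 76.5 CPM. The 4 Y-linked genes had at most 0.135 CPM and Xist had 458, 699.9 and 597 CPM. The part that other cells played in the levels above was not tested.

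Epithelial genes were distributed in different ways. Most of the cytoskeletal and adhesion genes of epithelium that were tested were highest in library 3. Epcam had 0, 0 and 101 CPM, Cdh1, E-cadherin, 1.35, 5.18 and 257, and the keratin gene Krt8 0.271, 0.524 and 232. Krt19, another keratin gene, was highest in library 2, with 2.98, 25.1 and 8.58 CPM. Of the 9 epithelial genes tested, 7 were 4-fold above both others in library 3, against 7.34% of all genes tested. In libraries 1, 2 and 3, 3, 4 and 9 genes of the list reached 1 CPM, so several were tested only through library 3. Basal cell genes were at or near 0, with Krt5 and Krt14 without a count and Trp63 at most 0.990 CPM. The lung lineage factors behaved differently, being present in libraries 2 and 3 and not in library 1. Foxa1 had 0, 77.6 and 98.6 CPM, Nkx2-1 0.338, 47.8 and 102, and Foxa2 0.0677, 69.6 and 25.9. Sftpc, surfactant protein C of alveolar type II cells, had no count in libraries 1 and 2 and 58.8 CPM in library 3, whereas Sftpb had 2.52 and Scgb1a1 0.0561 CPM there.

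Across all genes tested, libraries 1 and 2 had the highest correlation. Pearson's r of the log2 CPM was 0.919 between libraries 1 and 2, 0.837 between 1 and 3 and 0.821 between 2 and 3, given as a description over 14390 genes that share their library. The median absolute log2 difference gave another order, at 0.37, 0.35 and 0.44 for the same pairs. With at least 10 counts in every library the correlations of libraries 1 and 2 and of 1 and 3 were 0.927 and 0.921. In ATAC-seq the 3 pairs were equally far apart, with 0.855, 0.847 and 0.846 over 86902 peaks. The common biological coefficient of variation, edgeR's measure of the spread between replicates, was 0.69 in RNA-seq and 0.453 in ATAC-seq. Without library 3 it was 0.498 in RNA-seq, against 0.705 without library 1 and 0.663 without library 2. In ATAC-seq, leaving out 1 library at a time gave 0.435 to 0.444. The spread in RNA-seq was thus lower without library 3 than without either of the others, and that in ATAC-seq was about the same whichever was left out.

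The same rule was then applied to each library in turn, counting features at least 4-fold above the higher, or below the lower, of the other libraries. Each is 1 tumor, so these counts carry no test. In library 1, 116 genes (0.806%) were above and 271 (1.88%) below. In library 2, 224 (1.56%) were above and 431 (3.0%) below. In library 3, 1056 (7.34%) were above and 127 (0.883%) below. Library 3 thus had the most genes that stood above the others, and library 2 the most that stood below. With only the genes that had at least 10 counts in every library, those above numbered 52, 73 and 198, since a gene absent from another library then drops out.

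Peaks did not follow that order. In library 1, 375 peaks (0.432%) were above and 563 (0.648%) below. In library 2, 1356 (1.56%) were above and 243 (0.28%) below. In library 3, 1395 (1.61%) were above and 615 (0.708%) below. Libraries 2 and 3 had nearly equal numbers of peaks above the others although library 3 had far more such genes.

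**Figure D2:**
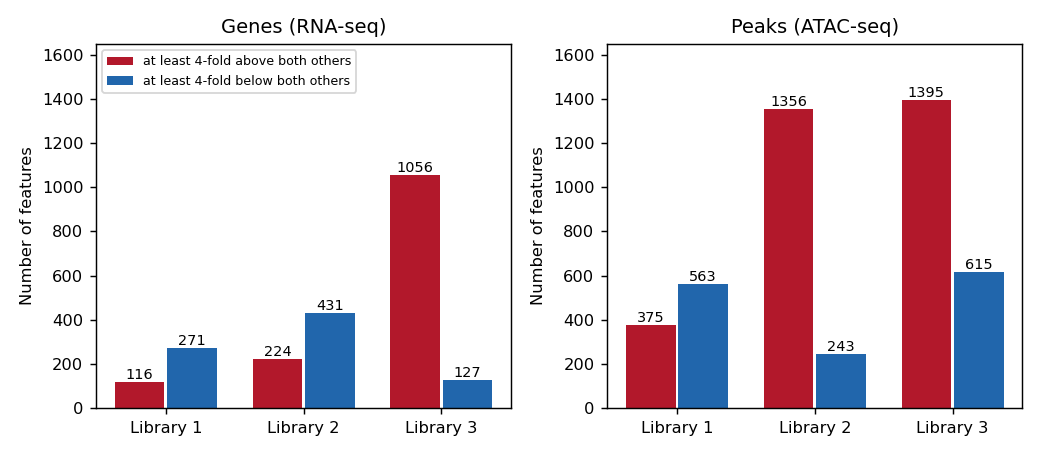
Number of genes (left) and peaks (right) at least 4-fold above or below both other libraries, for each CARM1 knockout library in turn. For genes the tallest bar is library 3 above, at 1056, and for peaks the bars of libraries 2 and 3 above are of like height, at 1356 and 1395.

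Most of the genes furthest above in library 3 were neuroendocrine. By the fixed rule the genes furthest above included Calca, Epcam, Resp18, Scg3, Cartpt, Scg2 and Ppp2r2c. Among these, Epcam is an epithelial gene and Ppp2r2c encodes a phosphatase subunit. Calca encodes calcitonin and CGRP, peptides of pulmonary neuroendocrine cells, and had 0, 0.349 and 832 CPM. Resp18, Scg3 and Scg2, proteins of the secretory granule, had 0, 0 and 92.2, 0, 0 and 71.7, and 0, 0.116 and 109.7 CPM. Cartpt, a neuropeptide precursor, had no count in libraries 1 and 2 and 65.3 CPM in library 3, at least 322-fold more. Of the 19 neuroendocrine genes tested, 18 were 4-fold above in library 3, against 7.34% of all genes tested. The exception was Ncam1 with 34.6, 149 and 99.2 CPM. In libraries 1, 2 and 3, 3, 4 and 19 genes of this list reached 1 CPM, so most were tested only through library 3. The list was also written with earlier results known, so its count is a description and no independent support. Of the 12 genes tested of the Notch pathway, which restrains neuroendocrine fate, 5 were 4-fold above in library 3, against 7.34% of all genes tested, among them the ligands Dll3 (0.0677, 0 and 13.9 CPM) and Jag2 (0.338, 0.757 and 71.7 CPM) and the receptor Notch3. The Notch list had 9, 8 and 12 genes at 1 CPM or more in libraries 1, 2 and 3. Rest, a repressor of neuronal genes, had 60.03, 60.4 and 49.98 CPM.

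Accessibility at the start sites of these genes was looked at next. Its differences are not compared in size with those in RNA, since most of these genes were named above for a 4-fold difference in RNA. Start-site peaks were found for 19 of the neuroendocrine genes, and their median accessibility was 2.04, 3.24 and 7.61 CPM. For 18 of the 19 it was highest in library 3, against 39.8% of all 12420 genes tested with a start-site peak. At Chga it was 1.99, 1.78 and 13.2 CPM, where the transcripts had 0.203, 0.524 and 210.2 CPM. At Calca it was 2.84, 3.36 and 7.61 CPM. Start sites of genes without a count in library 1 still held reads there. The median over all start sites with a peak was 18.7, 20.8 and 20.6 CPM, so that the median of these genes lay below it in library 3 too.

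The promoters of Chga and Calca are shown because their start sites had this pattern. They are RefSeq sequences of GRCm38 from 250 bases before to 50 after the start, 5′ to 3′ along the gene. Capitals mark the E-box CAGCTG, the core bound by basic helix-loop-helix factors, which has the same letters on the other strand. The Chga promoter (chr12:102554691-102554990, plus strand) held 2 matches and the Calca promoter (chr7:114636308-114636607, minus strand) 1. Of all 32851 promoter windows of this length, 16.3% held a match. The last sequence is the 300 bases at the centre of the start-site peak of Ppp2r2c, a regulatory subunit of protein phosphatase 2A, on the plus strand of chr5:36869177-36869476. That gene had 0, 0 and 60.9 CPM and its peak 1.65, 2.50 and 10.4 CPM.
Chga promoter: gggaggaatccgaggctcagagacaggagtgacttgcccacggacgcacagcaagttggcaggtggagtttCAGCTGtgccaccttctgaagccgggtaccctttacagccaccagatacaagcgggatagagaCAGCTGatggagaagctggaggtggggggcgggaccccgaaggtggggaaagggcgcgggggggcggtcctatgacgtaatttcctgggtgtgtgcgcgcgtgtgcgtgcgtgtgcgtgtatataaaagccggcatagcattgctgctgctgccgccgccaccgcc
Calca promoter: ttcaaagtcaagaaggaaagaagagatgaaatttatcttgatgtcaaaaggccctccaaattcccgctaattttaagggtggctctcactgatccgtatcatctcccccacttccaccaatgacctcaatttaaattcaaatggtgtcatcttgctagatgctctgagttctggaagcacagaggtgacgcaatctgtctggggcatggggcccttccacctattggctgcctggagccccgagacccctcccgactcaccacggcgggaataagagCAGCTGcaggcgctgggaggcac
Ppp2r2c start-site peak: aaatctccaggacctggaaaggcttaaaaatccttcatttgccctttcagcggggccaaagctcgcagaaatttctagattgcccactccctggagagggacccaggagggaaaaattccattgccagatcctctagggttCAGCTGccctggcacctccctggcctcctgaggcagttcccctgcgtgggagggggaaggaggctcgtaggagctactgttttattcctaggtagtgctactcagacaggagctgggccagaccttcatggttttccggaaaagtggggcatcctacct

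The genes furthest below in library 3 were Il33, C1qtnf7, Igfbp5 and Dchs1. Il33, an alarmin cytokine, had 443, 1039.8 and 19.4 CPM, 22.9-fold less in library 3 than in library 1. Igfbp5, a binding protein of insulin-like growth factors, had 2973, 1837 and 131 CPM. C1qtnf7 had 27.1, 20.6 and 1.12 CPM, and 9 of the 14 peaks tested within 50 kb of its start were 4-fold below in library 3, including the start-site peak with 3.02, 2.80 and 0.266 CPM. Near Igfbp5 1 of 10 peaks was 4-fold below, and near Il33 none of 15.

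The 8 genes furthest above in library 2 were F13a1, Sprr2e, Col8a2, Anxa8, Sh3rf2, Adamts16, Sprr2b and Cxcl15. Anxa8, an annexin, had 2.37, 575 and 5.55 CPM, 104-fold above the next library. Sprr2b and Sprr2e, small proline-rich proteins of squamous epithelium, had 0, 140.3 and 1.51, and 0.0677, 32.4 and 0.112 CPM. Cxcl15, a chemokine of lung epithelium, had 0.135, 295 and 3.87 CPM. F13a1, coagulation factor XIII, had 0.0677, 80.9 and 0.393 CPM, and Adamts16, a matrix protease, 0.406, 101 and 0.954. Chromatin went with several of them: the start-site peak of Anxa8 had 0.207, 5.51 and 0.435 CPM, that of Cxcl15 0.181, 4.43 and 0.266, and that of Adamts16 1.06, 4.97 and 1.26.

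The genes furthest below in library 2 were Mmp12, Pde3a, Tlr13 and H2-Q6. Mmp12, the macrophage elastase, had 597, 22.1 and 857 CPM and Tlr13, a receptor of innate immune cells, 25.3, 1.16 and 63.7. The leukocyte list was lowest in the same library, as given above, and the part of such cells in these values was not tested. Pde3a, a phosphodiesterase, had 21.9, 0.990 and 26.3 CPM and a start-site peak of 13.02, 3.21 and 19.4 CPM.

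The 8 genes furthest above in library 1 were Trf, Csf3, Tnfsf8, Chl1, Scube1, Adam23, Epas1 and Spon1. Trf, transferrin, had 47.1, 0.349 and 0.561 CPM, and Csf3, the granulocyte colony-stimulating factor, 109.5, 4.13 and 0.841. Epas1, the hypoxia-inducible factor HIF-2 alpha, had 245, 5.94 and 13.5 CPM. Of 12 acute-phase and chemokine genes, 3 were 4-fold above in library 1, against 0.806% of all genes tested, and the median was 431, 90.6 and 175 CPM. Saa3, serum amyloid A3, had 2500.3, 85.9 and 505 CPM, Lcn2, lipocalin 2, 81.7, 2.45 and 7.07, and Il6 159, 14.7 and 16.3. The start site of Il6 was nearly as open in the other libraries, with 27.3, 21.4 and 23.9 CPM.

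Interferon targets and genes of antigen presentation had the same order. The medians of 10 interferon genes were 134, 34.6 and 39.7 CPM and those of 9 MHC class I genes 98.7, 17.1 and 46.8 CPM. Library 1 was the highest for all 19 genes, but only 2 interferon genes and no MHC class I gene passed 4-fold there. Rsad2 was 1 of the 2, with a log2 difference of 2.37 to the higher of the other libraries. Isg15, with 228, 64.3 and 72.8 CPM, did not pass, nor did B2m, the light chain of MHC class I, with 859.9, 258 and 537. Of the 9 MHC class I genes, 3 were 4-fold below both others in library 2, against 3.0% of all genes tested. Of 9 interferon genes with a start-site peak, 8 were most open in library 1 (Bst2 was not), and so were the start sites of all 9 MHC class I genes, of which Tap1 and Psmb9 share a peak. Over all 12420 genes tested with a start-site peak, 14.4% were most open in library 1. The differences in accessibility were small, with medians of 34.2, 29.1 and 29.7 CPM for MHC class I.

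The genes furthest below in library 1 were Foxa1, R3hdml, Fgf13 and Susd5, none of which had a count there. Foxa1, a pioneer factor of lung epithelium, was at least 382-fold lower than in library 2. Its start site held 8.6001, 38.2 and 27.9 CPM, and those of Foxa2 and Nkx2-1 held 4.21, 29.0 and 15.7, and 4.49, 28.7 and 17.5 CPM. All 3 start sites thus had the order of the libraries seen in RNA for Foxa2, with library 2 above library 3. Susd5 had 0, 29.0 and 27.1 CPM and a start-site peak of 0.594, 7.95 and 3.77 CPM.

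Sequences follow for peaks and promoters on which the results of libraries 1 and 2 turn. The Foxa1 promoter (chr12:57546062-57546361, minus strand, RefSeq) and a peak 11836 bp downstream of its start, with 0.723, 10.96 and 6.19 CPM, have the forkhead core TGTTTAC in capitals, on either strand. The downstream window is chr12:57534930-57535229, plus strand. The Anxa8 promoter (chr14:34085729-34086028, plus strand, RefSeq) and a peak in an intron of Adamts16, with 0.956, 6.41 and 1.04 CPM (window chr13:70836305-70836604, plus strand), have the RUNX core TGTGGT in capitals. Among all promoter windows, 3.65% held the forkhead core and 16.8% the RUNX core.
Foxa1 promoter: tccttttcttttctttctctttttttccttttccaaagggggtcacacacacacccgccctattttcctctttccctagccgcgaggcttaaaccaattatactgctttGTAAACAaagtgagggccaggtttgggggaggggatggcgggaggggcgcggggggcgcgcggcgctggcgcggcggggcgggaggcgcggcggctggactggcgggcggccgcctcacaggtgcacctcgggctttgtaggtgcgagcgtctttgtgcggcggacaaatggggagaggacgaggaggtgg
Foxa1 downstream peak: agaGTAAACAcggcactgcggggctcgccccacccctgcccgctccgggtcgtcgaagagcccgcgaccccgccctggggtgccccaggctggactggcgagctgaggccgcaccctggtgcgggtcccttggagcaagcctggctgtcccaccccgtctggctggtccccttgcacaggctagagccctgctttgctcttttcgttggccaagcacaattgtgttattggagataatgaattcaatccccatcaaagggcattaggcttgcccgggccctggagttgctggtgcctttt
Anxa8 promoter: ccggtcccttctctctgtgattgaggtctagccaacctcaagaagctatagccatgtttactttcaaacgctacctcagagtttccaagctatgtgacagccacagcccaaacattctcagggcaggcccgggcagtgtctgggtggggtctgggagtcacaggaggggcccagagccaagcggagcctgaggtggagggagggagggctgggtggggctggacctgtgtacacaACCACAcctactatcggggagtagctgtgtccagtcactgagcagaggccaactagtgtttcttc
Adamts16 intron peak: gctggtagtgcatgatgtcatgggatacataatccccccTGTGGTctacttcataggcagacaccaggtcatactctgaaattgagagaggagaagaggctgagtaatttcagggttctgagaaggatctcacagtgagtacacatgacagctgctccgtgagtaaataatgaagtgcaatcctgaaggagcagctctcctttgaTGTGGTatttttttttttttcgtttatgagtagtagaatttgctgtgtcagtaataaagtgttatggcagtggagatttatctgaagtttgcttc

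By reads alone, the most open places of the genome were repeats. The 3 peaks with the most reads held 21.9, 13.01 and 15.5% of all reads on peaks in libraries 1, 2 and 3. They lay on chr9:2999941-3038383, chr14:19415663-19419733 and chr2:98666183-98667389, and 96.1, 82.98 and 79.9% of their bases were soft-masked as repeats in the reference. Among peaks of up to 10 kb, the highest per length was that on chromosome 2, with 33440 ± 9744 CPM per kb (SD, n = 3), beside the predicted gene Gm10800. The next were chr9:35305167-35305652, in an intron near Rpusd4, with 13724 ± 4022 CPM per kb, and the peak on chromosome 14, in an intron of a predicted gene near the start of Gm21738, with 11376 ± 3608. Places 4 to 6 were chr2:98664839-98665278, chr2:98662181-98663028 and chr12:3109811-3110176, with 6547, 6389 and 4031 CPM per kb. Places 7 to 10 lay in introns, with Chl1, Lama1 and Ddhd1 as the nearest starts, and between genes 12372 bp from BC048403, with 983 to 3099 CPM per kb. All 10 were highest in library 1.

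The gene models Gm10800, Gm21738 and Gm10801 at these peaks had no RNA-seq count in any library. The same holds for Gm13290 and Gm13287, gene models on chromosome 4 with 273.7 to 472.3 CPM at their start sites. Reads that fit many copies of a repeat can pile up where the reference holds few of them, and the part of this in these values was not tested. Other places with many reads were the ribosomal RNA locus on chr17:39842933-39848891, where CT010467.1 lies, with 3141 ± 569 CPM, and a cluster on chr6:47671113-47687014 with 2102 ± 330 CPM.

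Within 1000 bp of a transcription start lay 23.2% of the peaks tested. All peaks there, tested or not, held 53.2, 54.5 and 55.5% of all reads on peaks. Repeat peaks near gene models such as Gm10800 and Gm10719 were included. Introns held 40.5% of the peaks tested and, over all peaks, 24.4 to 26.9% of the reads, and intergenic sequence 32.2% and 17.9 to 18.2%. Among the 1000 most open peaks per length, 46.0% were promoters.

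The most open start sites of expressed genes were looked for after the values had been seen. The genes had at least 10 CPM in each library and start-site peaks of at least 1 kb in summed length. They belonged to Nsfl1c (186 ± 15.04 CPM per kb of peak), Crebzf (69.3 ± 6.25), Srp54c (59.9 ± 5.44), Ifi204 (51.1 ± 6.30) and Hist1h2bc (47.9 ± 8.86), followed by Dynlt1f, Immt, Map3k3, Sp1 and Gsk3b. At Crebzf a peak of only 172 bp held 179, 145 and 154 of the 203, 170 and 181 CPM. Sp1, a factor of promoters rich in GC, had 37.9 ± 3.34. Expression of these 10 genes lay between 3.72 and 25.9 CPM per kb of exon.

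Peaks of their own differed in kind between the libraries. The peaks furthest above in library 2 were not promoters: chr16:6271519-6272347 in an intron of Rbfox1 had 0.129, 12.3 and 0.266 CPM, chr8:26864683-26865535, in an intron 112216 bp from the start of Zfp703, 0.439, 18.3 and 0.459, and chr8:92488554-92489272, 131164 bp from Irx5, 0.413, 16.4 and 0.363. Those of library 3 were a peak in an intron near Prex1 with 0.981, 0.921 and 12.5 CPM, and peaks 573 bp from the start of Fgf14 and 78 bp from that of Dpp6 with 1.01, 0.979 and 10.6 and 1.47, 0.94 and 10.5 CPM. Those of library 1 included chr1:97592886-97593937, between genes, with 12.7, 1.46 and 1.38 CPM, and chr17:36045654-36045913, with 14.8, 1.61 and 3.09.

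Promoters made up 8.80, 7.45 and 19.9% of the peaks 4-fold above in libraries 1, 2 and 3, and 23.2% of all peaks tested. The median length was 461, 589 and 865 bp, against 898 bp of all peaks tested, and the median GC content 43.9, 48.3 and 50.4% against 49.0%. Peaks of library 3 were thus more often promoters than those of libraries 1 and 2, and none of the 3 groups reached the share of all peaks.

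The sequence within these peaks was compared over the central 300 bases of peaks outside promoters, on both strands, for the AP-1 core TGANTCA, the E-box CAGCTG, the forkhead core TGTTTAC, the NKX2 core CACTTGA, the RUNX core TGTGGT, the TEAD core GGAATG and the NFI half-site TTGGCA. None of these contains another. Over all 66635 such peaks tested, 31.5% of windows held the AP-1 core, 22.1% the E-box and 27.9% the RUNX core. In the 1118 windows of library 3, the AP-1 core was found in 11.8% and the E-box in 34.8%, and the NKX2 core in 12.3% against 4.94% of all. In the 1255 windows of library 2, the RUNX core was found in 46.5%, the AP-1 core in 39.5% and the NFI half-site in 29.6% against 21.1% of all.

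The 342 windows of library 1 held the forkhead core in 10.8%, against 5.27% of all, 7.09% in library 2 and 10.1% in library 3, and the AP-1 core in 33.6%. The 482 windows 4-fold below in library 1 held the forkhead core in 12.7%, the NKX2 core in 9.34%, the E-box in 28.0% and the RUNX core in 34.2%. Foxa1, Foxa2 and Nkx2-1 had no or almost no counts in that library, and a link to these shares was not tested. The 562 windows 4-fold below in library 3 held the AP-1 core in 39.7%. The C/EBP core TTGCNNCAA, the GRHL core AACCNGTT and the ETS core CCGGAAG were searched as well and were found in at most 5.26% of the windows of any of these groups. Windows are longer than some peaks, the groups differ in GC content, and their part in these shares was not tested. The RUNX genes, looked up after these shares were seen, had 82.2, 106 and 90.6 CPM for Runx1, 43.3, 74.3 and 31.5 for Runx2, and 4.81, 70.9 and 22.4 for Runx3.

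**Figure D3:**
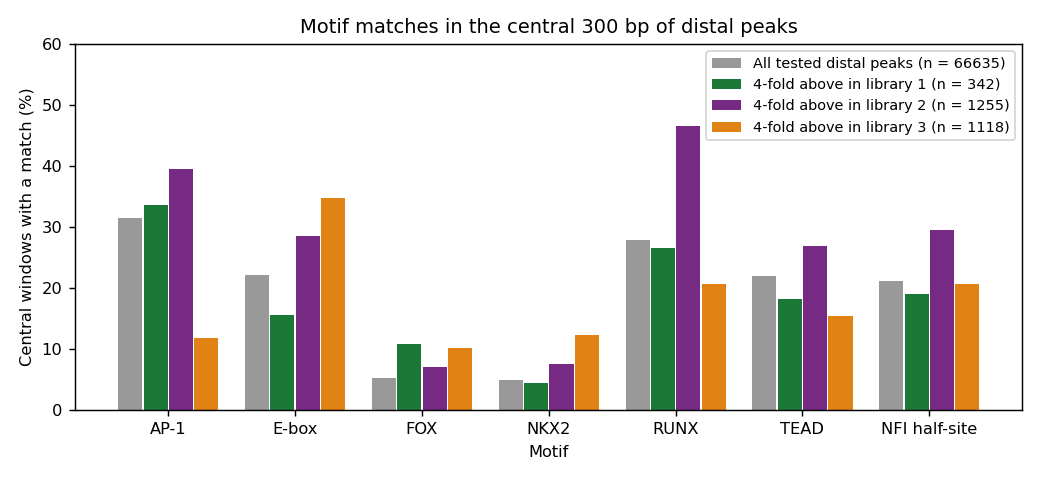
Share of windows of 300 bases at the centre of peaks outside promoters that hold each motif on either strand, in percent, for all 66635 such peaks tested and for those at least 4-fold above both others in library 1, 2 or 3. The RUNX bar of library 2 reaches 46.5% and the E-box bar of library 3 34.8%, and the AP-1 bar of library 3 is the lowest of its group at 11.8%.

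Expression was then set against accessibility at start sites, pairing libraries by their number. Of 21519 protein-coding genes, 14432 (67.1%) had at least 1 peak of up to 10 kb within 1000 bp of the gene start. With such a peak, 78.2, 78.4 and 83.8% of genes were expressed at 1 CPM or more, and without it 10.2, 9.47 and 13.1%. Of the expressed genes, 94.0, 94.4 and 92.9% had a start-site peak. Genes with a peak were thus expressed far more often in each library.

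Expression differed by accessibility mainly at the low end. Genes with a peak were divided into 5 equal bins by accessibility. In the least open bin 28.8, 30.5 and 50.5% of genes were expressed, in the next 83.5, 81.8 and 87.0%, and in the upper 3 between 91.3 and 95.4%. Median expression was 0.0343, 0.0505 and 0.284 CPM per kb of exon in the least open bin, 4.03, 3.5997 and 4.38 in the next and 8.51, 8.33 and 8.20 in the middle one. It then stayed level, at 7.97, 8.22 and 8.03 in the most open bin. Over all genes with a peak, Spearman's rho between accessibility and expression per length was 0.467, 0.474 and 0.4, and over the expressed ones alone 0.212, 0.226 and 0.252. These are descriptions across genes, which share library, depth and base composition. Library 3 differed from the others in its least open bin, where more genes were expressed.

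**Figure D4:**
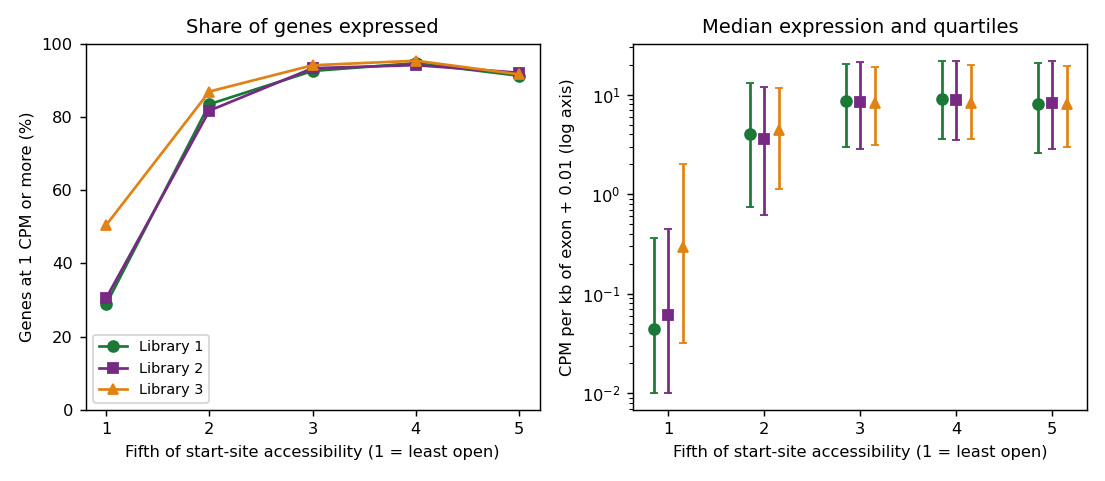
Share of protein-coding genes at 1 CPM or more (left, percent) and expression in CPM per kb of exon + 0.01 on a log axis (right, points for medians and bars for quartiles) by bin of start-site accessibility, in each CARM1 knockout library. The share climbs from 28.8 to 50.5% in the least open bin to at least 81.8% in the next, and medians level off from the middle bin on.

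Exceptions in both directions were named by a fixed rule. Of the 6 most expressed genes without a start-site peak, 5 were mitochondrial, led by mt-Co1 at 4715 ± 243 CPM per kb, since no peak lay on the mitochondrial genome, and the other was Actg1. Nuclear genes were therefore looked at as well, after the values had been seen. Of 541 nuclear genes at 1 CPM or more in all 3 libraries without a start-site peak, 408 (75.4%) had a peak at the start of another of their transcripts or 1 longer than 10 kb, among them Actg1, Fth1, Pfn1 and Tpi1. Lyz2 and Ccl6, a macrophage chemokine with 349.5, 52.5 and 663 CPM, had none at any transcript start. Of the 10 leukocyte genes tested, Lyz2, Ptprc, Adgre1, Itgam, Tyrobp and Laptm5 had no start-site peak, although Itgam had 92.1, 13.9 and 292 CPM. The other 4 had one, with 48.6, 42.3 and 50.1 CPM at Cd68, 20.8, 23.2 and 24.0 at Cd14, 1.91, 1.55 and 1.74 at Csf1r, and 6.07, 2.82 and 2.59 at Fcer1g. At Nfib the annotated gene start was nearly closed, at 0.517, 0.0576 and 0.363 CPM.

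In the other direction, 1142 of the 14432 genes with a start-site peak (7.91%) had at most 3 counts in every library. The most open of these were gene models at the repeats named above. The list of lung lineage genes held another case: Foxj1, the factor of ciliated cells, had 0.203, 0.116 and 0.785 CPM with start-site peaks of 15.3, 17.8 and 19.2 CPM.

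Whether differences between the tumors were shared by the assays was asked with the deviations of each library from the mean of the 3, over 12420 genes tested with a start-site peak. Same-numbered libraries correlated with r = 0.623, 0.648 and 0.699, and differently numbered ones with -0.0840 to -0.474. The sum over same numbers, 1.97, was the highest of all 6 ways to pair the libraries, the next being 0.522 (exact permutation test, one-sided p = 0.167, the smallest that 6 pairings allow), so the test could not pass 0.05. Deviations from a mean of 3 sum to 0, which by itself lowers the correlations of differently numbered libraries. The paper states that both assays were run on the same tumor biopsies, but the labels do not say that equal numbers mark the same tumor.

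Genes of 1 library were then followed to their start sites in the library of the same number. Of the genes 4-fold above in library 1 with a start-site peak, 23 of 80 (28.8%) were at least 2-fold more open at the start in library 1 than in both others, as were 61 of 149 (40.9%) in library 2 and 363 of 845 (43.0%) in library 3. Over all 12420 genes the shares were 0.612, 0.749 and 3.36%. In a different library the start sites of the same genes passed 2-fold in at most 0.118% of cases. Start sites most open in that library, by any amount, made up 86.3, 93.3 and 89.3% of them, against 14.4, 45.8 and 39.8% over all 12420 genes. The median difference to the higher of the other libraries was 2.58, 3.32 and 4.05 on the log2 scale in RNA, where the rule sets a minimum, and 0.66, 0.83 and 0.86 at the start site, where it sets none, so these sizes are not compared.

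Genes 4-fold below in 1 library were followed likewise. Their start sites were at least 2-fold less open in 29.1% of 227 genes in library 1, 16.6% of 259 in library 2 and 26.04% of 96 in library 3, against 1.34, 0.684 and 0.564% of all. Library 2 had the lowest share. Macrophage genes such as Mmp12 were among its genes, and their part in this share was not tested. A peak 4-fold above in the same library lay within 50 kb of 19.6, 30.3 and 26.7% of the genes 4-fold above in libraries 1, 2 and 3, against 2.08, 6.63 and 7.13% of all coding genes tested.

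**Figure D5:**
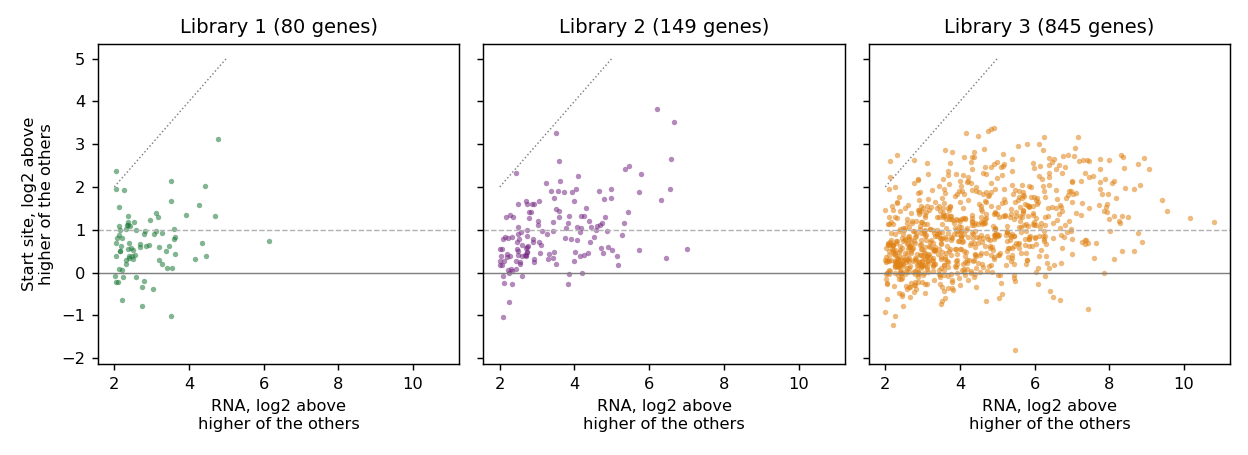
Genes at least 4-fold above both others in RNA-seq that have a start-site peak, 1 panel per library, with the log2 difference to the higher of the other libraries in RNA (x) and at the start site (y). Lines mark no difference (solid), 2-fold (dashed) and equal change (dotted), and most genes lie above the solid line, with medians of 0.66, 0.83 and 0.86 at the start site.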

How the data were processed

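Gene counts and peak counts were used as deposited by the authors, as whole-number counts that had not been normalized. According to the methods and the labels, RNA-seq reads were trimmed, aligned with hisat2 to GRCm38 and counted per gene with htseq-count. ATAC-seq reads were aligned with Bowtie2, duplicates were removed, peaks were called (MACS2 in the methods, Genrich in the submitters' processing notes), peaks in regions of putative copy number change were filtered out, and reads on the merged peaks were counted with featureCounts 1.6.3. Versions of the other tools are not given in the sources used here. Reads without a gene (4.84 to 5.14%) stayed out of library sizes.

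Counts were scaled by edgeR's (4.0.16) TMM factors over all 9 libraries of an assay. Features with 1 CPM in at least 1 CARM1 knockout library were tested. A library stood above or below the others when it differed at least 4-fold (prior count 2) from both. Dispersion came from edgeR without a group term. Start sites were the 1000 bp either side of a gene start, with peaks of up to 10000 bp. No test compares the tumors, since each is 1 library, and an exact permutation over pairings was the only test. Named were the 20 genes highest per kb (without mitochondrial and ribosomal protein genes), the 8 coding genes furthest above and 4 furthest below in each library with at least 20 CPM, the members of 32 lists, the 10 peaks highest per kb, the 5 such outside promoters, the 3 furthest above in each library with at least 10 CPM, and the 6 most expressed genes without, and 6 most open start sites without, the other readout. Open start sites of expressed genes, nuclear genes without a start peak, Runx genes, motifs and printed sequences were chosen after the values were seen. The members and lists were chosen with earlier results of these data known. The dispersion and the 4-fold rule were tested on simulated data with a spread set well below that of these libraries. How the rule performs at their own spread was not tested. The software was R 4.3.3 and Python 3.11.15. Alternatives covered the scaling, the filter, the prior count, the fold threshold, the start-site definition and leaving out each library. Some list members, named genes and peaks are not reported here.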

Additional observations from a re-analysis of the deposited data

How the results depend on the processing

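Of 208 alternative values, 144 stayed within the main value's limits and 64 moved. None reversed, but counts, percentages and coefficients of variation are never negative and could not change sign. The exact permutation test over 6 pairings cannot give a one-sided p below 0.167, so no setting could make it pass. The absence of reversals is therefore no sign of stability for these values. The common biological coefficient of variation was 0.412 in both RNA-seq and ATAC-seq with at least 10 counts in every library, and 0.498 to 0.705 (RNA-seq) and 0.435 to 0.444 (ATAC-seq) without each replicate in turn. RNA-seq correlations with library 3 became 0.9304 (library 1) and 0.924 (library 2) without a filter, and 0.921 and 0.902 with that minimum. ATAC-seq correlations of libraries 1 and 2, 1 and 3, and 2 and 3 became 0.903, 0.892 and 0.893 without a filter and 0.889 each with that minimum. For libraries 1 and 2 they were 0.861 with library totals, 0.860 with TMM over 3 libraries and 0.862 with a prior count of 5. For 1 and 3 they were 0.839 and 0.858, and for 2 and 3 0.839 and 0.855, with prior counts of 0.5 and 5. Genes above in libraries 1, 2 and 3 numbered 490, 495 and 1689 at 2-fold and 52, 73 and 198 with that minimum. At 8-fold libraries 1 and 2 had 42 and 131, and without a filter library 1 had 180. Genes below numbered 714, 1085 and 382 at 2-fold, 112, 135 and 42 at 8-fold, and 76, 239 and 65 with that minimum. In library 1 they numbered 432 and 172 with prior counts of 0.5 and 5. Peaks above numbered 4696, 5060 and 5173 at 2-fold and 19, 363 and 235 at 8-fold, and 846 in library 3 with that minimum. Peaks below numbered 3644, 3257 and 3893 at 2-fold and 87, 17 and 123 at 8-fold. With that minimum they numbered 330 in library 1 and 391 in library 3. Library 2 had 488 without a filter and 156 with a prior count of 5. Median rho at start sites was 0.513 for summed CPM. At a threshold of 5 CPM a median of 69.1% of genes with and 6.66% without a start-site peak were expressed, and with the starts of any transcript 4.52% of those without (at 1 CPM). Stricter thresholds and filters keep fewer features by construction, and the cause of the other changes was not tested. No paired analysis was possible because no groups were compared. A gene at 0 counts may hold up to 0.168 to 0.203 CPM.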

Other observations

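Medians by chromosome of the log2 deviation from the mean of the 3 libraries were computed for RNA-seq genes and for ATAC-seq peaks. Over 20 chromosomes the RNA-seq and ATAC-seq medians correlated with r = 0.940, 0.875 and 0.924 in libraries 1, 2 and 3, given as a description. Chromosome 19 had -0.14 in RNA-seq and -0.18 in ATAC-seq in library 1, and chromosome 3 had -0.13 and -0.18. Chromosome 10 had -0.16 and -0.14 in library 3. Chromosome 18 had 0.17 and 0.24 in library 3 and -0.14 and -0.11 in library 2. Chromosome X had 0.16 and 0.06 in library 1 and -0.17 and -0.04 in library 2.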
